A study of Mus musculus with 15 samples.

Results

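The genes described here build the elastic fibres of the vessel wall or bear on mineral deposition in it: Eln, Fbn1, Fbln1, Fbln2, Fbln5, Mfap4, Mfap5, Emilin1, Mgp and Spp1. They were chosen by name with earlier results of these data known, and all 10 were found among the 22557 genes of the deposited expression table. RNA sequencing had been done on cerebral vessels isolated from perfused brains of wild type C57BL/6 mice aged 8 months, in 3 groups of 5 libraries. GFP-Veh mice received AAV-GFP (an adeno-associated virus carrying green fluorescent protein) by stereotactic injection and then saline. GFP-AL mice received AAV-GFP and then AngII plus L-NAME, that is angiotensin II with an inhibitor of nitric oxide synthase. LH3-AL mice received AAV-LH3, which carries the lysyl hydroxylase encoded by Plod3, and then AngII plus L-NAME. All groups share the brain injection and an AAV, no group had AAV-LH3 with saline, and the labels name neither the promoter of the viruses nor the site of injection. The series concerns intracerebral haemorrhage in hypertension, and whether LH3 changes the expression profile of these vessels.

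Elastic fibres let arteries stretch and recoil. Tropoelastin, the product of Eln, is deposited on a scaffold of fibrillin microfibrils (Fbn1), to which the microfibril-associated proteins Mfap4 and Mfap5 and the glycoprotein Emilin1 bind. Fibulins guide the assembly, and lysyl oxidases then cross-link the elastin. Mgp, matrix Gla protein, is a vitamin K-dependent inhibitor of calcification made by smooth muscle and endothelial cells of the arterial wall. Spp1 encodes osteopontin, a secreted phosphoprotein that binds mineral and cell-surface integrins and is made by fibroblasts and activated macrophages among other cells.

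The size that a single read gives to low values put the depth at 13.6 to 29.8 M fragments (M, mega) across GFP-Veh, 21.1 to 27.8 across GFP-AL and 18.0 to 31.6 across LH3-AL. Of the GFP-Veh libraries 4 lay at 13.6 to 16.0 M, below every library of the other groups, and replicate 5 at 29.8 M, so depth moved with the group in comparisons with GFP-Veh. The labels do not say that each library came from a separate mouse, so p-values measure the spread between these libraries, which may be technical. On the first principal component, with 43.6% of the variance, GFP-AL libraries lay between 19.8 and 58.0 and all others below 0; the most distant were GFP-AL replicate 2 (49.4) and replicate 3 (58.0). Plod3, the transferred gene, averaged 16.8 FPKM (fragments scaled to transcript length and to mapped fragments) across GFP-Veh, 13.9 across GFP-AL and 21.6 across LH3-AL. It was higher in LH3-AL than in GFP-AL by 0.60 ± 0.08 on the log2 scale (SE, limma, adjusted p = 1.07e-04). Endothelial markers summed to 1923 to 3635 FPKM and smooth muscle markers to 638 to 1218 FPKM over the 15 libraries, so both defining cell types of vessels were present.

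The members differed widely in level. Mgp was the most abundant in every group, with means of 133, 416 and 199 FPKM in GFP-Veh, GFP-AL and LH3-AL. It made up 57.5%, 64.6% and 62.4% of the summed FPKM of the 10 genes. Spp1 came next, followed by Eln and then Fbln5, in all 3 groups. Fbln1 and Fbln2 followed with group means of 5.69 to 10.8 FPKM. Emilin1, Mfap4 and Fbn1 averaged 1.41 to 5.01 FPKM, and within a group the ranges of Emilin1 and Mfap4 overlapped in all 3 groups. Mfap5 was lowest, at 0.306 to 2.09 FPKM, which corresponds to an estimated 19.7 to 158 fragments per library against 1759 to 15817 for Mgp.

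**Figure D1:**
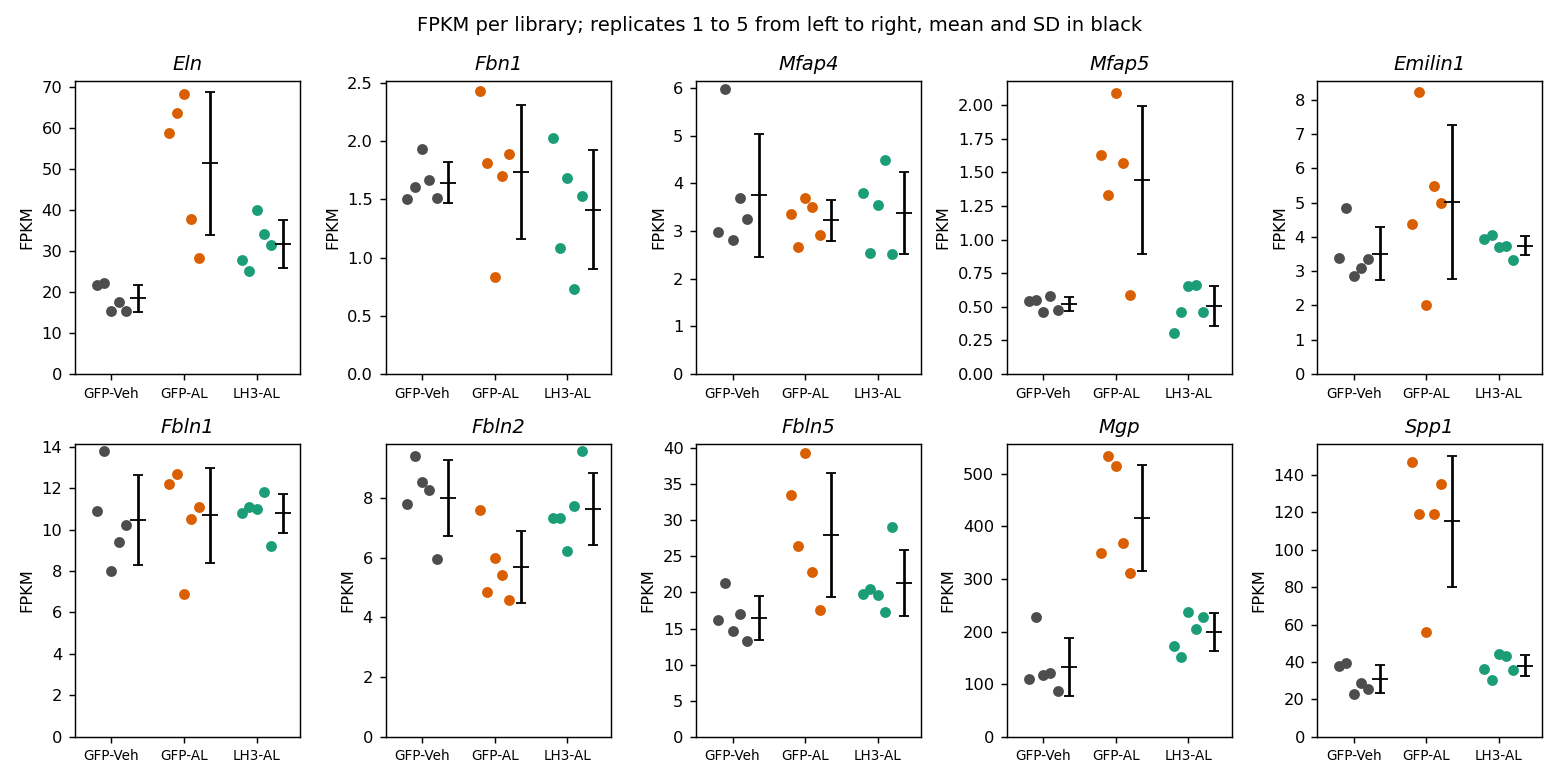
Level of each of the 10 genes in FPKM (vertical axes, linear and starting at 0) in the 15 libraries, with replicates 1 to 5 from left to right in each group and the group mean and SD in black. GFP-AL points lie above all GFP-Veh points for Eln, Mfap5, Mgp and Spp1, and GFP-AL replicate 3 is low for Spp1 (55.9), Emilin1 (2.0) and Fbn1 (0.837).

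AngII plus L-NAME was followed by higher RNA of elastin, of the elastin-binding fibulin Fbln5 and of both genes tied to calcification. Against GFP-Veh, mean Spp1 was 3.73 times as high in GFP-AL, Mgp 3.13 times, Eln 2.77 times and Fbln5 1.69 times, while Fbln2 was 0.712 times as high. The scaffold gene Fbn1 and the fibulin Fbln1 had ratios of 1.05 and 1.02. Tests were made with limma on log2(FPKM + 1) across the 13082 genes that averaged 1 FPKM or more, and a gene was called at a Benjamini-Hochberg adjusted p below 0.05. Of the 10 members 9 passed that filter, all but Mfap5. In GFP-AL against GFP-Veh 4 of the 9 were called higher and 1 lower, where 10.8% of all tested genes were called higher and 17.7% lower. The members were chosen with earlier results of these data known, so such shares do not test the set in any comparison. The 5 libraries of the groups did not overlap for 4 of the 10 members, Eln, Mfap5, Mgp and Spp1, and did not overlap for 16.7% of tested genes. The median log2 fold change was 0.34 over the 9 and -0.09 over all tested genes. Without GFP-AL replicates 2 and 3 and GFP-Veh replicate 2, which stood apart in the marker sums or the principal component, 5 of the 9 were called higher, Emilin1 (0.51, adjusted p = 0.00168) among them, and 0 lower. With log2 depth as a covariate 4 of the 9 were called, and Fbln2 was not (-0.25, adjusted p = 0.285).

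With AAV-LH3 and the same drugs, Spp1, Mgp and Eln were lower than with AAV-GFP. Against GFP-AL, mean Spp1 was 0.330 times as high in LH3-AL, Mgp 0.479 times and Eln 0.617 times. Limma called 3 of the 9 lower and 0 higher, where 11.4% of all tested genes were called lower and 17.0% higher; 4 of the 9 had an unadjusted p below 0.05, these 3 and Fbln2, which was higher. Groups did not overlap for Mgp and Spp1, against 19.4% of tested genes. The median was -0.25 over the 9 and 0.08 over all tested genes. Without the same 3 libraries the counts were 0 higher and 3 lower, with other genes among them: Eln was no longer called (-0.34, adjusted p = 0.271) and Emilin1 was (-0.32, adjusted p = 0.0183). This comparison shares the GFP-AL libraries with the preceding one, so the opposite signs in the pair of comparisons are not independent.

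In LH3-AL against GFP-Veh limma called 0 of the 9 in either direction, and 2 of them, Eln and Mgp, had an unadjusted p below 0.05. Over all tested genes 0.145% were called higher and 0.375% lower. Eln was the member whose 5 LH3-AL values all lay above the 5 GFP-Veh values, against 4.67% of tested genes. The median over the 9 was 0.09, and -0.01 over all tested genes. Without the 3 libraries named above, 1 member, Mgp, was called higher.

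**Figure D2:**
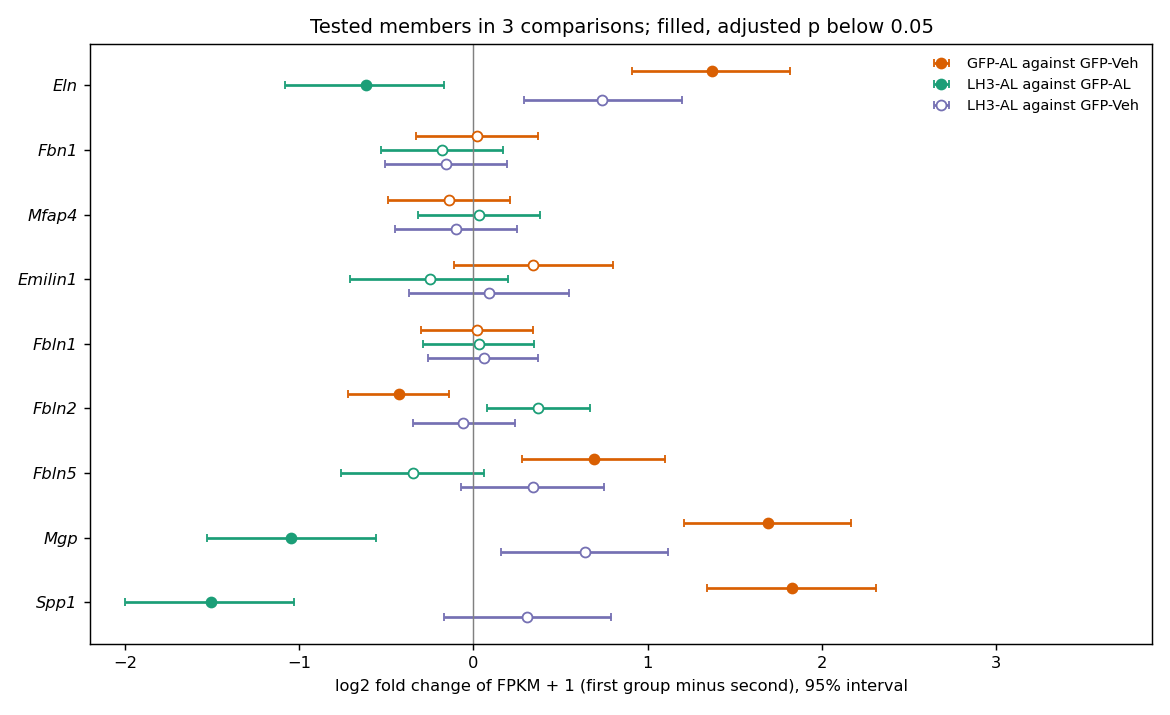
Log2 fold change of FPKM + 1 (horizontal axis, first group minus second) with its 95% interval for the 9 members in the limma fit, in 3 comparisons by colour; filled points have an adjusted p below 0.05. Spp1, Mgp and Eln lie to the right in GFP-AL against GFP-Veh (1.83, 1.69 and 1.37) and to the left in LH3-AL against GFP-AL, while Fbn1, Mfap4 and Fbln1 lie near 0 in all comparisons.

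Eln (ENSMUSG00000029675, GRCm38 chr5:134702593-134747323, minus strand) encodes elastin itself. Its level was 21.8, 22.1, 15.5, 17.6 and 15.5 FPKM across GFP-Veh replicates 1 to 5, 58.8, 63.7, 68.2, 37.9 and 28.2 across GFP-AL and 27.9, 25.1, 40.0, 34.1 and 31.4 across LH3-AL. All GFP-AL libraries were above all GFP-Veh libraries, but GFP-AL split into a high set, replicates 1 to 3, and a low set, replicates 4 and 5, that reached into the LH3-AL range. The means were 18.5 ± 3.23, 51.4 ± 17.4 and 31.7 ± 5.79 (SD, n = 5 each). Eln rose in GFP-AL against GFP-Veh by 1.37 ± 0.21 on the log2 scale (SE, 95% interval 0.91 to 1.82, limma, adjusted p = 3.40e-04). It was lower in LH3-AL than in GFP-AL by a log2 fold change of -0.62 ± 0.21 (limma, adjusted p = 0.0403), a call that held in 12 of 26 alternative analyses. Those 26 include leaving out each GFP-Veh library, which left the fold change at -0.62. Without GFP-AL replicates 2 and 3 the fold change in LH3-AL against GFP-AL was -0.34 (limma, adjusted p = 0.301). Against GFP-Veh, Eln in LH3-AL stood at 0.74 ± 0.21 (95% interval 0.29 to 1.20, adjusted p = 0.206 in the fit over all groups and 0.0298 in a fit of these 10 libraries alone). Gm30003, on the opposite strand, overlaps an exon of Eln, and without stated strand-specific counting their reads cannot be told apart.

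Smooth muscle cells are a main source of elastin in arteries. The 10 smooth muscle markers, Acta2 and Myh11 among them, summed to 730 to 1218 FPKM across GFP-Veh, 638 to 804 across GFP-AL and 658 to 960 across LH3-AL. None of the 10 was called higher in GFP-AL against GFP-Veh and 2 were called lower, Mylk (-0.62) and Myh11 (-0.54). That is near the shares over all tested genes, 10.8% called higher and 17.7% lower. The 10 endothelial markers summed to 1962 to 2819 FPKM across GFP-Veh and 2386 to 3635 across GFP-AL, with 4 called higher and 3 lower. The part of either cell type in the Eln result was not tested. In such bulk samples fewer cells of a type and less RNA per cell cannot be told apart.

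Fbn1 (ENSMUSG00000027204, chr2:125300594-125507993, minus strand) encodes fibrillin-1, the backbone of the microfibril. Its level was 1.50, 1.61, 1.93, 1.67 and 1.51 FPKM across GFP-Veh, 2.43, 1.81, 0.837, 1.70 and 1.89 across GFP-AL and 2.03, 1.08, 1.68, 0.728 and 1.53 across LH3-AL. The GFP-Veh libraries lay within the range of GFP-AL and that of LH3-AL. The log2 fold change was 0.02 ± 0.17 in GFP-AL against GFP-Veh (95% interval -0.33 to 0.37) and -0.18 ± 0.17 in LH3-AL against GFP-AL (-0.53 to 0.17). Gm9913 overlaps Fbn1 exons on the opposite strand.

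Mfap4 and Mfap5 bind fibrillin microfibrils, and Mfap4 also binds elastin. Mfap4 (ENSMUSG00000042436, chr11:61485431-61488900, plus strand) was at 2.99, 5.97, 2.82, 3.70 and 3.25 FPKM across GFP-Veh, 3.35, 2.67, 3.69, 3.50 and 2.91 across GFP-AL and 3.79, 2.53, 3.54, 4.50 and 2.51 across LH3-AL. Apart from 5.97 in GFP-Veh replicate 2, all its values fell in 1 band from 2.51 to 4.50. Its log2 fold change was -0.14 ± 0.16 in GFP-AL against GFP-Veh (95% interval -0.49 to 0.21), and 0.01 without GFP-Veh replicate 2. Mapk7 overlaps Mfap4 exons on the opposite strand.

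Mfap5 (ENSMUSG00000030116, chr6:122505845-122529290, plus strand) behaved differently. It stood at 0.546, 0.554, 0.460, 0.578 and 0.473 FPKM across GFP-Veh, 1.63, 1.33, 2.09, 1.57 and 0.591 across GFP-AL and 0.306, 0.464, 0.654, 0.660 and 0.460 across LH3-AL. In 4 of the 5 GFP-AL libraries it was above 1 FPKM, which no other library reached, and GFP-AL replicate 5 lay just above the GFP-Veh range. The difference of mean log2(FPKM + 1) was 0.65 in GFP-AL against GFP-Veh, with an exact two-sided permutation p of 0.00794, the smallest that 5 libraries against 5 allow. It was -0.67 in LH3-AL against GFP-AL (exact permutation p = 0.0238) and -0.02 in LH3-AL against GFP-Veh (exact permutation p = 0.786). Limma without the expression filter, over 22526 genes, gave adjusted p = 0.00465, 0.00484 and 1.000 for the 3 comparisons. Its median of 50.6 estimated fragments per library limits the precision, and pseudocount 1 understates the change of a gene this low: the ratio of means was 2.76 in GFP-AL against GFP-Veh.

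Emilin1 (ENSMUSG00000029163, chr5:30913402-30921277, plus strand) lies at the interface of elastin and microfibrils. It was at 3.38, 4.83, 2.87, 3.09 and 3.35 FPKM across GFP-Veh, 4.37, 8.23, 2.0, 5.49 and 4.98 across GFP-AL and 3.95, 4.04, 3.70, 3.72 and 3.33 across LH3-AL. GFP-AL held both the highest and the lowest value of all 15 libraries, in replicates 2 and 3. The log2 fold change in GFP-AL against GFP-Veh was 0.34 ± 0.21 (95% interval -0.11 to 0.80, limma, adjusted p = 0.245). Leaving out GFP-AL replicate 3 gave 0.57 (adjusted p = 0.0130), and in LH3-AL against GFP-AL it moved the value from -0.25 to -0.48 (adjusted p = 0.0330). Leaving out GFP-AL replicate 2 instead moved the values the other way, to 0.17 (adjusted p = 0.540) and -0.08 (adjusted p = 0.791). Without both replicates they were 0.41 (adjusted p = 0.0325) and -0.32 (adjusted p = 0.0968).

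The 3 fibulins gave different calls. Fbln5 binds tropoelastin and integrins and is needed for elastic fibre assembly. Fbln1 and Fbln2 sit in basement membranes and around elastic fibres. In GFP-AL against GFP-Veh limma called Fbln5 higher and Fbln2 lower and did not call Fbln1.

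Fbln5 (ENSMUSG00000021186, chr12:101746565-101819055, minus strand) was at 16.2, 21.3, 14.6, 17.0 and 13.3 FPKM across GFP-Veh, 33.5, 26.4, 39.3, 22.9 and 17.5 across GFP-AL and 19.8, 20.5, 19.7, 17.3 and 29.1 across LH3-AL. The GFP-AL values were above the GFP-Veh range in 4 of 5 libraries, all but replicate 5. The rise was 0.69 ± 0.19 on the log2 scale (95% interval 0.28 to 1.10, limma, adjusted p = 0.0150); without GFP-AL replicates 2 and 3 it was 0.52 (adjusted p = 0.0917). In LH3-AL it lay between both other groups, at -0.35 ± 0.19 against GFP-AL (adjusted p = 0.187) and 0.34 ± 0.19 against GFP-Veh (adjusted p = 0.642).

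Fbln2 (ENSMUSG00000064080, chr6:91212455-91272540, plus strand) was at 7.82, 9.40, 8.54, 8.26 and 5.96 FPKM across GFP-Veh, 7.61, 4.86, 6.01, 5.42 and 4.58 across GFP-AL and 7.33, 7.32, 6.23, 7.75 and 9.57 across LH3-AL. GFP-AL replicates 2, 4 and 5 lay below all libraries of the other groups. Replicate 3 (6.01) lay just above GFP-Veh replicate 5 (5.96), and replicate 1 lay among the others. The fall in GFP-AL against GFP-Veh was -0.43 ± 0.14 (95% interval -0.72 to -0.14, limma, adjusted p = 0.0289) and passed in 12 of 26 alternatives, with adjusted p from 0.00886 to 0.285. Those 26 include leaving out each LH3-AL library, which left the fold change at -0.43 and kept the call. In LH3-AL against GFP-AL the value was 0.37 ± 0.14 (adjusted p = 0.0522).

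Fbln1 (ENSMUSG00000006369, chr15:85205949-85286535, plus strand) was at 10.9, 13.8, 8.00, 9.41 and 10.2 FPKM across GFP-Veh, 12.2, 12.7, 6.91, 10.5 and 11.1 across GFP-AL and 10.8, 11.1, 11.0, 11.8 and 9.20 across LH3-AL. The group means of 10.5, 10.7 and 10.8 were closer together than the libraries of any group. The 95% intervals of its log2 fold changes ran from -0.30 to 0.34 in GFP-AL against GFP-Veh and from -0.29 to 0.35 in LH3-AL against GFP-AL.

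Mgp (ENSMUSG00000030218, chr6:136872435-136875823, minus strand) was at 109, 227, 117, 121 and 87.9 FPKM across GFP-Veh, 349, 534, 514, 369 and 312 across GFP-AL and 173, 152, 237, 205 and 228 across LH3-AL. Every GFP-AL library was above every other library. GFP-Veh replicate 2 was the one GFP-Veh library inside the LH3-AL range. The means were 133 ± 54.4, 416 ± 101 and 199 ± 36.1 (SD, n = 5 each). Mgp rose in GFP-AL against GFP-Veh by 1.69 ± 0.23 (95% interval 1.21 to 2.17, limma, adjusted p = 1.03e-04), and the value was -1.05 ± 0.23 in LH3-AL against GFP-AL (-1.53 to -0.56, adjusted p = 0.00398). Both calls held in all 26 alternatives, where the first ran from 1.44 to 1.91 and the second from -1.14 to -0.72. Against GFP-Veh, LH3-AL stood at 0.64 ± 0.23 (95% interval 0.16 to 1.12, adjusted p = 0.357), and at 0.85 (adjusted p = 0.0134) without GFP-AL replicates 2 and 3 and GFP-Veh replicate 2.

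Endothelial markers moved in part with Mgp. Their sum was 1962 to 2819 FPKM across GFP-Veh, 2386 to 3635 across GFP-AL and 1923 to 2669 across LH3-AL, and GFP-Veh replicate 2 had the highest sum of its group. In GFP-AL against GFP-Veh 4 of the 10 were called higher, Vwf (1.70), Pecam1 (0.67) and Cdh5 (0.56) among them. The other way, 3 were called lower, Tek (-0.95) among them. Of all tested genes 10.8% were called higher and 17.7% lower. Of the 9 arterial endothelial markers 4 were higher and 3 lower, with sums of 281 to 471, 222 to 427 and 220 to 290 FPKM. The part of these cells in the Mgp result was not tested.

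Spp1 (ENSMUSG00000029304, chr5:104435118-104441050, plus strand) had the largest ratio of means among the 10 in GFP-AL against GFP-Veh and the smallest in LH3-AL against GFP-AL. Its level was 38.0, 39.3, 23.1, 28.6 and 25.3 FPKM across GFP-Veh, 147, 119, 55.9, 119 and 135 across GFP-AL and 36.3, 30.6, 44.4, 43.4 and 35.5 across LH3-AL. All GFP-AL values were above all others, with replicate 3 far below its group. The LH3-AL values straddled the upper end of the GFP-Veh range. The means were 30.9 ± 7.38, 115 ± 35.1 and 38.0 ± 5.80 (SD, n = 5 each). Spp1 rose in GFP-AL against GFP-Veh by 1.83 ± 0.23 (95% interval 1.34 to 2.31, limma, adjusted p = 5.45e-05), and the value was -1.51 ± 0.23 in LH3-AL against GFP-AL (-2.0 to -1.03, adjusted p = 3.59e-04). Both calls held in all 26 alternatives, from 1.70 to 2.20 and from -1.79 to -1.32. In LH3-AL against GFP-Veh it was 0.31 ± 0.23 (95% interval -0.17 to 0.79, adjusted p = 0.746). Gm42793 overlaps Spp1 exons on the same strand.

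Markers of phagocytes and monocytes, which can make osteopontin, moved with Spp1. The 12 markers summed to 127 to 213 FPKM across GFP-Veh, 345 to 640 across GFP-AL and 138 to 197 across LH3-AL. Of the 9 that were tested, 7 were called higher in GFP-AL against GFP-Veh and 7 lower in LH3-AL against GFP-AL, led by Cd14 (3.87 and -3.47), Cd68 (1.20 and -0.99) and Lgals3 (2.04 and -1.95). Over all tested genes 10.8% were called higher in the first comparison and 11.4% lower in the second. Ccr2, Ly6c2 and Ms4a7 of that list averaged under 1 FPKM, and none of the 12 was at 0 in all libraries. Gpnmb averaged 0.609, 2.15 and 0.754 FPKM in GFP-Veh, GFP-AL and LH3-AL, so it passed the filter only through GFP-AL. Within GFP-AL the order differed: replicate 2 had the highest phagocyte sum, 640 FPKM, with 119 FPKM of Spp1, and replicate 1 the lowest sum, 345 FPKM, with the highest Spp1, 147 FPKM. Perivascular fibroblast markers summed to 507 to 835, 741 to 1224 and 611 to 771 FPKM. Apod alone averaged 278, 675 and 353 FPKM in GFP-Veh, GFP-AL and LH3-AL, against mean sums of 629, 1010 and 696 FPKM. The sums thus follow this 1 gene, and the median log2 fold change of the list was -0.13 in GFP-AL against GFP-Veh. In GFP-AL against GFP-Veh 2 of the 12 were higher, Cyp1b1 (1.12) and Apod (1.27), and 2 lower, Col6a3 (-0.37) and Slc6a13 (-0.51). These counts are near the shares over all tested genes, 10.8% higher and 17.7% lower. The part of either cell type in the Spp1 result was not tested.

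**Figure D3:**
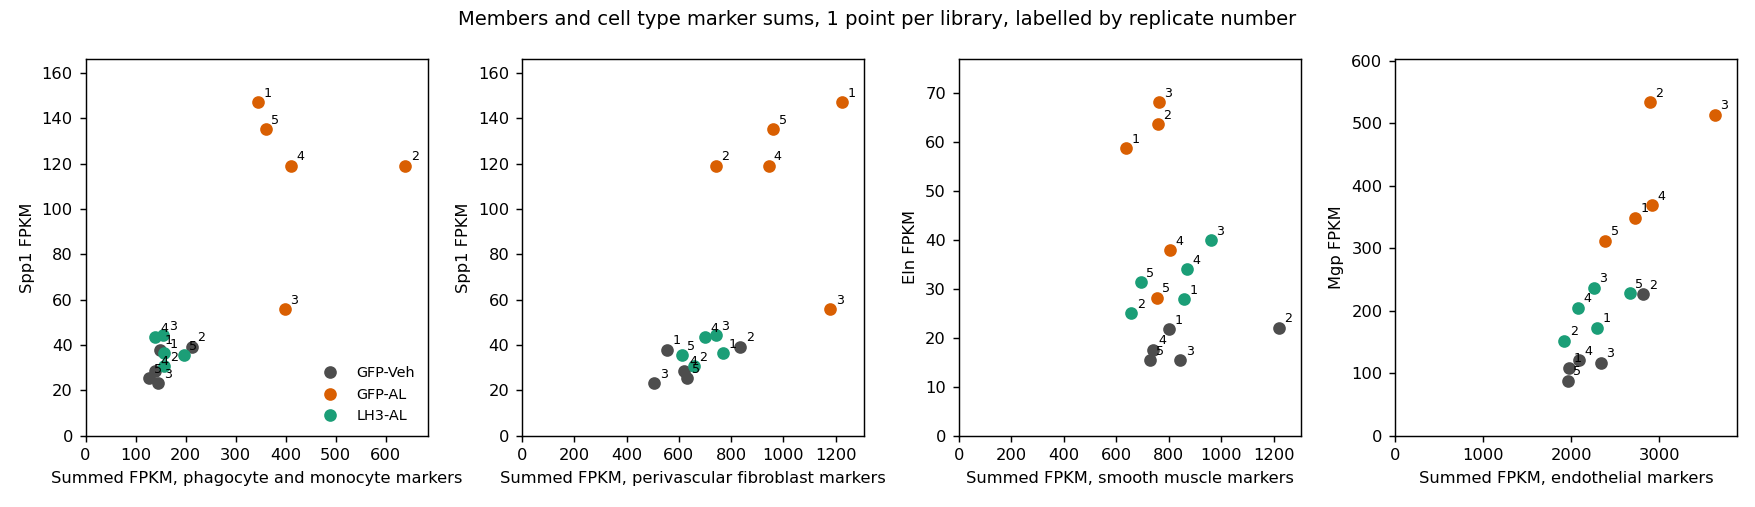
Spp1, Eln and Mgp in FPKM (vertical axes) against the summed FPKM of cell type markers (horizontal axes), 1 point per library, numbered by replicate and coloured by group. For Spp1 the GFP-AL points lie to the right in phagocyte markers (345 to 640), while for Eln they lie at 638 to 804 in smooth muscle markers, within or below the range of the other groups.

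The other marker lists give the cell context of all 10 genes. In GFP-AL against GFP-Veh, 0 of 10 pericyte markers were higher and 3 lower, 2 of 9 microglia markers were higher and 0 lower, and 4 of 7 neutrophil markers were higher and 0 lower. Meningeal markers were 0 higher and 4 lower of 10, and choroid plexus markers 0 higher and 8 lower of 10. The shares over all tested genes were 10.8% higher and 17.7% lower, and the pericyte and microglia counts are near them. The counts in LH3-AL against GFP-AL were 4 and 0 for pericytes, 0 and 3 for microglia, 0 and 6 for neutrophils, 4 and 0 for meningeal and 7 and 0 for choroid plexus markers. For smooth muscle they were 1 and 0, for perivascular fibroblasts 2 and 2, for endothelium 1 and 4 and for arterial endothelium 2 and 3. Of all tested genes 17.0% were called higher and 11.4% lower in that comparison, and the smooth muscle and perivascular fibroblast counts are near these shares. In LH3-AL against GFP-Veh none of the markers in the 10 lists was called by limma, where 0.145% of all tested genes were called higher and 0.375% lower. Neutrophil sums ran from 106 to 917 FPKM in GFP-AL, against 79.3 to 239 in GFP-Veh and 35.9 to 63.2 in LH3-AL. Of the neutrophil markers called, Il1r2 averaged 0.231, 10.7 and 0.217 FPKM in GFP-Veh, GFP-AL and LH3-AL, and Cxcr2 0.749, 6.62 and 0.415. Both passed the filter only through GFP-AL. Pericyte sums were 1359 to 1716, 800 to 1353 and 1284 to 1619 FPKM, microglia sums 106 to 189, 190 to 265 and 126 to 153, and meningeal sums 1577 to 3579, 1322 to 2737 and 1281 to 2520. Most of the meningeal sums was Ptgds, which averaged 2049, 1882 and 1783 FPKM in GFP-Veh, GFP-AL and LH3-AL.

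The proximal promoters of Spp1 and Fbln5 are printed because both genes were called higher in GFP-AL against GFP-Veh and have a window wholly upstream of the annotated gene. Each line holds the 250 bases before the start site, 5′ to 3′ on the gene's strand, from the RefSeq promoter table on GRCm38.p6, with matches to the searched motifs in capitals. The Spp1 window lies at chr5:104434861-104435110 on the plus strand and the Fbln5 window at chr12:101819120-101819369 on the minus strand.
Spp1: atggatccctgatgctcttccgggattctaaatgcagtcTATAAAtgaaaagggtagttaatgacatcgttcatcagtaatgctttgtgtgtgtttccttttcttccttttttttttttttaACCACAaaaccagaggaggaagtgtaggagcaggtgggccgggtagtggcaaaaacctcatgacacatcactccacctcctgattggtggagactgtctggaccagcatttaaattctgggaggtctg
Fbln5: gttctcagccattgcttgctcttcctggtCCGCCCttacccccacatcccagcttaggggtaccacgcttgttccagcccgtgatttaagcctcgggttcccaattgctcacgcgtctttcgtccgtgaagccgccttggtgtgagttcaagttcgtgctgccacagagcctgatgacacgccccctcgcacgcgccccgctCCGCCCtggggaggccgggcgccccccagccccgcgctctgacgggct
The capitals in Spp1 mark TATAAA at position -211 and ACCACA, the RUNX motif on the opposite strand, at -128, counted from the start site. In Fbln5 they mark the GC box, read on the opposite strand as CCGCCC, at -221 and -48. GC content was 43.6% in the Spp1 window and 65.2% in that of Fbln5.

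Motifs were searched on both strands in the windows of the 6 members that the table holds, which were Fbn1, Fbln1, Fbln2, Fbln5, Emilin1 and Spp1. The letters were TGANTCA for AP-1, TTCNNNGAA for STAT, TGTGGT for RUNX, GGGCGG for the GC box, GTCTAGAC for SMAD and TATAAA for the TATA box, with NF-kB and the CArG box, the site of serum response factor, by name. The GC box was found in Fbn1, Fbln2 and Fbln5, and in 32.7% of all 32851 windows of that length. RUNX was found in Spp1 and in 14.0% of windows, and TATAAA in Spp1 and in 12.4%. No window of the 6 held AP-1 (6.75% of all windows), STAT (7.02%), NF-kB (7.25%), CArG (1.47%) or SMAD letters (0.167%). A match is a run of letters and not a measured binding site.

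Within groups the genes did not all vary together. Over the 15 libraries Pearson's r of log2(FPKM + 1) was 0.91 between Eln and Mgp, 0.85 between Eln and Fbln5, 0.81 between Eln and Mfap5 and 0.81 between Mgp and Spp1, values that hold the group differences too. After each group's mean was removed, r was 0.67 between Eln and Mgp, 0.69 between Eln and Fbln5 and 0.76 between Eln and Mfap5, but 0.05 between Mgp and Spp1 and -0.03 between Eln and Spp1. Spp1 then ran with Fbln1 (0.85) and Emilin1 (0.68). GFP-AL replicate 3 shows both sides: it was the highest GFP-AL library for Eln, Fbln5 and Mfap5 and the lowest for Spp1, Emilin1, Fbn1 and Fbln1. This library also stood apart in quality. Only 43.1% of its low values matched whole estimated reads, against 57.3% to 65.3% in the other libraries. In it 11967 genes reached 1 FPKM, while each other library counted 12446 to 13457. How far the within-group correlations rest on GFP-AL replicate 3 was not tested. These correlations are descriptions over libraries that share their preparation and group, not tests.

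**Figure D4:**
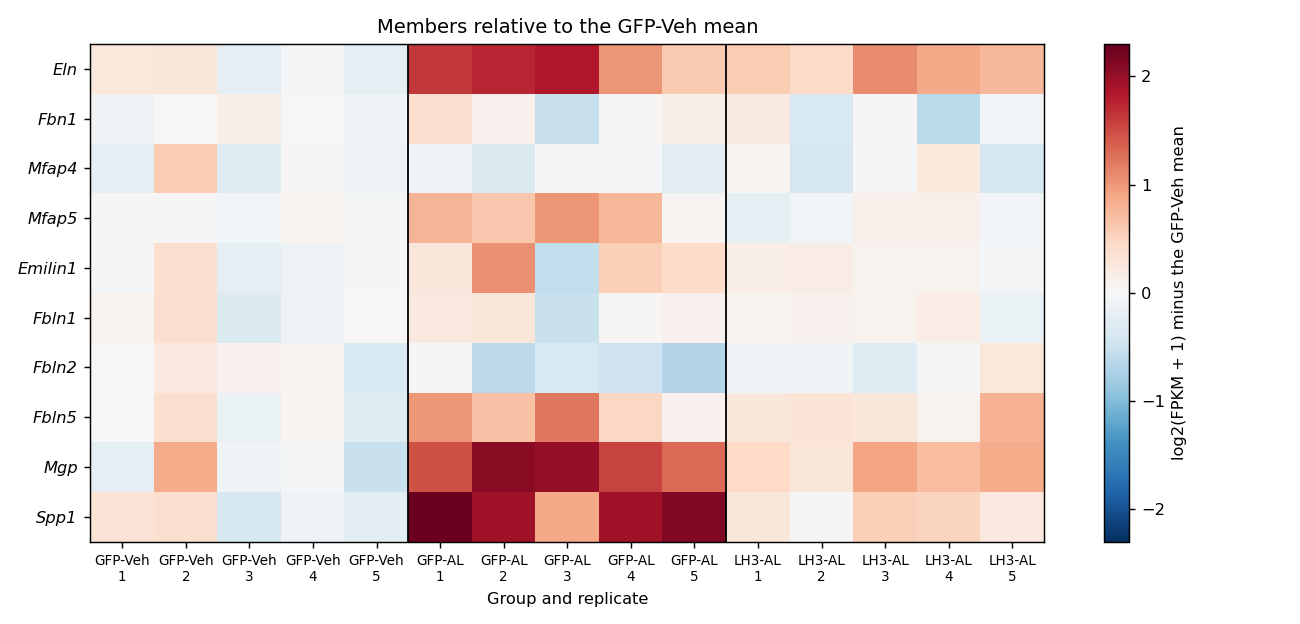
Each gene (rows) in each library (columns, grouped and numbered by replicate), as log2(FPKM + 1) minus the mean of the 5 GFP-Veh libraries; red is higher and blue lower, on 1 colour scale. Eln, Mgp and Spp1 are red across GFP-AL, and in GFP-AL replicate 3 Fbn1, Emilin1 and Fbln1 are blue beside the reddest Eln.

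The genes outside the set whose levels followed a member most closely over the 15 libraries were found by Pearson's r among tested genes. For Eln these were Spryd3 (0.930), H3f3b (0.908) and Ifitm10 (0.904). For Fbln5 they were Treml1 (0.936), Bin3 (0.921) and Gp1bb (0.900), and for Fbln2 Bsg (0.860), Gbp3 (0.838) and Xaf1 (0.832). Mgp was followed by Napsa (0.965), Gsto1 (0.963) and Rplp0 (0.962). Spp1 was followed by Cyp1b1 (0.960), Flnc (0.955) and Fcgr2b (0.948). The search ran over 13082 genes, and the libraries compared share their groups.

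Other genes of the elastic fibre went in both directions. Of 22 tested microfibril and elastic fibre genes 4 were called higher and 9 lower in GFP-AL against GFP-Veh (median -0.38). The shares over all tested genes were 10.8% higher and 17.7% lower in that comparison. In LH3-AL against GFP-AL they were 17.0% higher and 11.4% lower. Ltbp4, which binds fibulins and latent TGF-beta and takes part in elastic fibre assembly, fell from 112.9 to 51.49 FPKM (-1.14, adjusted p = 2.74e-05, limma), and Adamts10, an ADAMTS protease that binds fibrillin, fell by 0.54. Ltbp2 rose by 0.76 and Emilin2 by 1.49. In LH3-AL against GFP-AL 6 of the 22 were higher and 3 lower (median 0.31), with Ltbp4 at 1.01, Adamtsl2 at 0.94, Emilin2 at -1.45 and Ltbp2 at -0.56. Of 4 tested lysyl oxidases 2 rose and 0 fell in GFP-AL against GFP-Veh, Lox by 1.12 (2.627 to 6.936 FPKM) and Loxl2 by 0.75, and the same 2 were lower in LH3-AL against GFP-AL, at -1.05 and -0.70.

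Genes that degrade elastin or inhibit its degradation were called higher at 8 of 13 and lower at 0 in GFP-AL against GFP-Veh (median 0.55), and lower at 7 and higher at 0 in LH3-AL against GFP-AL (median -0.54). Over all tested genes 10.8% were called higher in the first comparison and 11.4% lower in the second. The genes of this list have opposed roles. They include the proteases Ctss (50.4 to 154.3 FPKM, 1.60, then -1.65) and Ctsb (0.65), but also the inhibitors Timp1 (3.05, then -2.58) and Slpi (1.11, then -1.18). Slpi averaged 0.724, 2.95 and 0.625 FPKM in GFP-Veh, GFP-AL and LH3-AL, so it passed the filter only through GFP-AL. Ctsl was at -0.69 in LH3-AL against GFP-AL. Phagocyte markers moved the same way in these libraries, and their part was not tested.

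Of 15 tested genes of calcification control and phosphate handling 1 rose and 5 fell in GFP-AL against GFP-Veh (median -0.35), and 4 were higher and 1 lower in LH3-AL against GFP-AL (median 0.06). The shares over all tested genes were 10.8% higher and 17.7% lower, then 17.0% higher and 11.4% lower. Alpl, tissue-nonspecific alkaline phosphatase, which breaks down the mineral inhibitor pyrophosphate and is thus no inhibitor itself, went from 87.52 to 14.95 and 50.49 FPKM (-2.49, adjusted p = 5.56e-06, then 1.69, adjusted p = 9.24e-05, limma). Ggcx, the gamma-carboxylase that activates matrix Gla protein, was at -0.74 and 0.72 where Mgp itself was at 1.69 and -1.05. Entpd1 rose by 0.86, and Slc20a1, a phosphate importer, was at -0.55 in LH3-AL against GFP-AL. Kl was at -1.19 and 1.20. It is also a choroid plexus marker, and choroid plexus sums were 3684 to 9220, 1977 to 3103 and 3176 to 5272 FPKM in the 3 groups, although the protocol says the plexus was removed. Most of these sums was Ttr, which averaged 5122, 2648 and 4137 FPKM in GFP-Veh, GFP-AL and LH3-AL. The part of the plexus in the Kl result was not tested.

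Among 6 genes mutated in inherited brain calcification 0 rose and 1 fell in GFP-AL against GFP-Veh, AI464131 (Myorg) at -0.93. With AAV-LH3, 2 were higher than in GFP-AL, AI464131 at 0.93 and Pdgfb at 0.54. Over all tested genes 10.8% rose and 17.7% fell in GFP-AL against GFP-Veh. With AAV-LH3, 17.0% of all tested genes were higher than in GFP-AL and 11.4% lower. Of 14 bone-forming genes listed 7 were tested, and of these 2 rose, Sparc (0.66) and Bmp2 (0.66), and 1 fell, Sp7 (-0.56). Runx2 (group means 0.220 to 0.322 FPKM) and Bglap (0.178 to 0.482 FPKM) were among those below the filter and were not tested. Bmp6 (0.49) and Sp7 (0.43) were higher and Bmp2 (-0.69) and Sparc (-0.49) lower in LH3-AL against GFP-AL. Of 10 receptors for osteopontin and fibulins 1 rose and 4 fell in GFP-AL against GFP-Veh. The integrin subunits Itgav (5.826 to 1.216 FPKM, -1.62), Itgb3 (-0.76), Itga5 (-0.55) and Itgb8 (-0.65) fell while Spp1 rose, and the receptor called higher was Cd44 (0.79). Cd44 averaged 1.02, 2.81 and 0.691 FPKM in GFP-Veh, GFP-AL and LH3-AL, near the filter of 1 FPKM. In LH3-AL against GFP-AL 5 were higher and 1 lower, with Itgav at 1.69, Itgb3 at 1.08, Itga5 at 0.40 and Cd44 at -1.05. In LH3-AL against GFP-Veh 0 genes of the 7 lists were called by limma, where 0.145% of all tested genes were called higher and 0.375% lower.

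**Figure D5:**
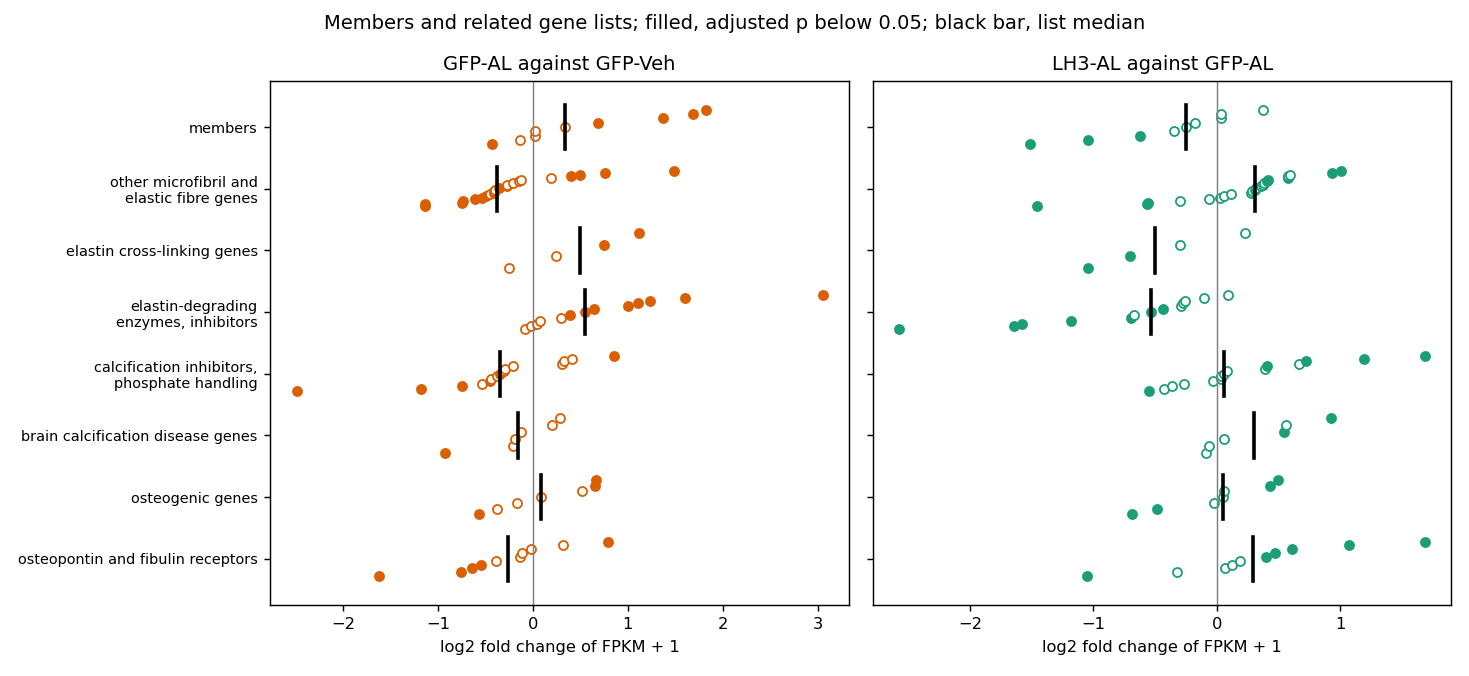
Log2 fold change of FPKM + 1 (horizontal axis) of each tested gene in the 10-member set and 7 related lists, in GFP-AL against GFP-Veh (left) and LH3-AL against GFP-AL (right); filled points have an adjusted p below 0.05 and black bars are list medians. The median of the elastin-degrading enzymes and inhibitors lies right of 0 on the left (0.55) and left of 0 on the right (-0.54), and other elastic fibre genes are split.

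The authors' deposited table for GFP-AL against GFP-Veh lists 1764 genes, all with an absolute log2 fold change above 1, and holds 4 of the members: Spp1 (1.90, q = 1.17e-13), Mgp (1.65, q = 1.14e-09), Eln (1.47, q = 1.56e-08) and Mfap5 (1.47, q = 2.00e-04). A second of the authors' deposited tables is named for LH3-AL against GFP-Veh, but the signs of all 1746 genes in it are those of LH3-AL against GFP-AL in the expression table, and 59.3% are those of LH3-AL against GFP-Veh. In the authors' deposited table so read, Spp1 stands at -1.61 (q = 2.36e-10), Mgp at -1.06 (q = 1.44e-05) and Mfap5 at -1.50 (q = 4.20e-04). Eln and Fbln2, whose fold changes in that comparison are below 1 in size, are outside its threshold.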

How the data were processed

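RNA libraries were sequenced from isolated cerebral vessels. The authors deposited FPKM values, per the file headers, and tables of log2 fold changes with p-values and q-values; STAR 2.5.1b and build mm8 come from the submitters' processing notes, and no source used here gives the counting step or strand. Positions are GRCm38 (GENCODE M21), none converted. FPKM values below 0 (5.99% of all, none of a member) were set to 0, and rows sharing a symbol (31) were summed to 22526 symbols. Estimated reads were whole, within 0.1 read, for 43.1% to 65.3% of low values, too few for a count test; counting error is unknown. Limma 3.58.1 (R 4.3.3) was fitted to log2(FPKM + 1) with group means over 15 libraries and an intensity trend, without a replicate block, two-sided, on genes averaging at least 1 FPKM, with Benjamini-Hochberg adjustment within a comparison. It was tested on simulated data. Mfap5 had an exact permutation test. Members, 7 pathway lists and 10 marker lists were chosen with earlier results of these data known. All members, up to 4 called genes per list and comparison by smallest p, and the 3 nearest genes of called members were named. Cell type markers, and Cd44 as a receptor called higher, were named beyond that rule after their values were seen. Protein sequences were not used here. Alternatives changed the pseudocount, filter, scaling, samples, block, depth and estimator.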

Additional observations from a re-analysis of the deposited data

Results flagged for a closer look

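Of 30 sets of 5 libraries (10 genes in 3 groups), 4 held a library whose gap to its nearest neighbour exceeded 0.71 of the group's range, and chance alone gives about 1 in 20. GFP-Veh replicate 2 was that library for 3 genes: Mgp at 227 FPKM (others 87.9 to 121), Emilin1 at 4.83 FPKM (others 2.87 to 3.38) and Mfap4 at 5.97 FPKM (others 2.82 to 3.70). The same library had the highest marker sum of GFP-Veh in every list except pericytes and neutrophils. Among these were perivascular fibroblast (835 FPKM), smooth muscle (1218 FPKM), phagocyte (213 FPKM), endothelial (2819 FPKM), meningeal (3579 FPKM) and choroid plexus (9220 FPKM) markers. LH3-AL replicate 5 was that library for Fbln5, at 29.1 FPKM (others 17.3 to 20.5).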

How the results depend on the processing

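Calls for Spp1, Mgp and Eln in GFP-AL against GFP-Veh and for Spp1 and Mgp in LH3-AL against GFP-AL held in all 26 alternatives run for each. Every such count of alternatives includes leaving out each library of the group not compared. That leaves the fold change as it was and alters only the shared estimate of spread and the genes tested. The genes called numbered 3737 in GFP-AL against GFP-Veh, 2174 with a mean of at least 5 FPKM and 2376 with depth as a covariate. They numbered 3723 in LH3-AL against GFP-AL, 2109 at 5 FPKM and 1935 without GFP-AL replicates 2 and 3. In LH3-AL against GFP-Veh they numbered 68, and 176 with the 2 groups alone, 4 with depth, 167 without GFP-AL replicates 2 and 3, 156 without GFP-Veh replicate 2 as well, and 27 to 110 when each library was left out. Members called there numbered 1 with the 2 groups alone (Eln) and 1 without the 3 libraries (Mgp). Median-of-ratios scaling moved the median of all genes from -0.09 to -0.01 and from 0.08 to 0.02, and changed the split of all calls from 1416 higher and 2321 lower to 1843 and 1702 in GFP-AL against GFP-Veh, and from 2227 and 1496 to 1765 and 1895 in LH3-AL against GFP-AL; the cause was not tested.

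Fbln2 in GFP-AL against GFP-Veh lost its call under that scaling (-0.35, adjusted p = 0.0760, limma), quantile normalization, the 2 groups alone, the replicate block and depth, and Fbln5 lost it without GFP-AL replicates 2 and 3. After group means were removed, same-numbered libraries had a correlation above 0.1 in at most 2 of 5 pairs. The labels do not say what a number marks, so this cannot settle whether the numbers pair libraries. With the replicate block 3783, 3879 and 31 genes were called in the 3 comparisons. Of the members 4 were then called higher and 0 lower, 0 and 3, and 0 and 0. Of the members' values, those that turned sign were uncalled and near 0. In GFP-AL against GFP-Veh, leaving out each library gave -0.07 to 0.16 for Fbn1, -0.06 to 0.16 for Fbln1 and -0.21 to 0.01 for Mfap4, which was 0.02 without the 3 libraries. In LH3-AL against GFP-AL Fbln1 was -0.04 with median-of-ratios scaling, -0.06 without the 3 libraries or the 2 GFP-AL ones and -0.10 to 0.09 without each, and Mfap4 -0.03 with that scaling, -0.08 with quantiles and -0.05 to 0.11 without each. In LH3-AL against GFP-Veh depth gave 0.14 for Fbln2 and 0.04 for Mfap4, Mfap4 was 0.04 without the 3 libraries, and leaving out each library gave -0.03 to 0.15 for Fbln1, -0.15 to 0.01 for Fbln2, -0.19 to 0.04 for Mfap4 and -0.05 to 0.03 for Mfap5.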
